A study of Mus musculus with 12 samples.

Results

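Granzymes A, B, C, D, E, F and K (Gzma, Gzmb, Gzmc, Gzmd, Gzme, Gzmf and Gzmk) and cathepsin G (Ctsg) are serine proteases of granules. These 8 genes were matched by symbol among the 16426 genes that a probe set of the array names alone, and each of the 8 had 1 such probe set. Expression was measured on Affymetrix ST1.0 arrays, with 2 arrays in each of 6 groups of mouse CD4+ T cells. Regulatory T cells (Tregs), which depend on the transcription factor Foxp3, were sorted from the spleens of Foxp3(M354/M354), Foxp3(M176/M176) and Foxp3(WT/WT) mice. In the other 3 groups, conventional CD4+ T cells of the WT genotype had been transduced with a retrovirus that carried M354, M176 or WT Foxp3, and were sorted for high Thy1.1, so each of these cultures carried the endogenous gene as well as a viral copy. All samples came from male C57Bl/6 spleens at 6 weeks of age. M354 and M176 are the names of the mutant forms in the labels, and the labels do not give their amino acid changes. Cells transduced without Foxp3 are not analysed here, so transduction and culture cannot be told apart from the origin of the cells when Tregs are set against transduced cells. Whether the 2 arrays of each group stem from different animals or cultures is not said in the labels, so p-values reflect only how these samples vary, which may be technical variation.

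Cytotoxic T cells and natural killer (NK) cells store granzymes in granules and deliver them to target cells through pores of perforin. Granzyme B cuts after aspartate and activates caspases, whereas granzymes A and K cut after lysine or arginine, and mouse granzyme C can kill cells without caspases. Activated T cells and some Tregs make granzyme B, which mouse Tregs can use in suppression, and cathepsin G is best known as a protease of neutrophil granules. In the mouse, Gzmb, Gzmc, Gzmd, Gzme, Gzmf and Ctsg lie together with mast cell protease genes on chromosome 14, and Gzma and Gzmk lie on chromosome 13.

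The sequences of 4 promoters are shown, those of Gzmb, Gzmc, Gzma and Ctsg, which differed between alleles as described below. Gzmk also differed between alleles in Tregs, but its window is not printed and had no match to any motif searched. Each is the run of 250 bases that ends just before a transcript start given by RefSeq on GRCm38.p6, written 5′ to 3′ on the minus strand, and capitals mark matches to the motifs searched. The regions are chr14:56262335-56262584 for Gzmb, chr14:56234658-56234907 for Gzmc, chr13:113100982-113101231 for Gzma and chr14:56102575-56102824 for Ctsg. The Gzmc window lies inside the span that RefSeq gives for the gene, which reaches farther upstream, whereas the other 3 windows end at the edge of their gene.
Gzmb promoter: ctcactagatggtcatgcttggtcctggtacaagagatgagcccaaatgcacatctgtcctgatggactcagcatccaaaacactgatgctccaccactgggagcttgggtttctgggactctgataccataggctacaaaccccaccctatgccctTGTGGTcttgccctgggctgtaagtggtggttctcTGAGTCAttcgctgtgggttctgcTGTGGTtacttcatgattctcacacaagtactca
Gzmc promoter: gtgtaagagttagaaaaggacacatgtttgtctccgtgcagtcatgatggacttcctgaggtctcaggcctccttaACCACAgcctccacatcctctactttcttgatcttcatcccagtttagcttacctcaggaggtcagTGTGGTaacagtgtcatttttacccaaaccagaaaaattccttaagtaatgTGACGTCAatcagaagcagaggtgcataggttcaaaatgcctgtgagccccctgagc
Gzma promoter: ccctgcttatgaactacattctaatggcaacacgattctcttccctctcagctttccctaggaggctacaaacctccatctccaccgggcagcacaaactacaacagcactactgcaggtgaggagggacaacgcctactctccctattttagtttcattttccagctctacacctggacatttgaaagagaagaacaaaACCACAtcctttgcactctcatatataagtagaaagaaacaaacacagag
Ctsg promoter: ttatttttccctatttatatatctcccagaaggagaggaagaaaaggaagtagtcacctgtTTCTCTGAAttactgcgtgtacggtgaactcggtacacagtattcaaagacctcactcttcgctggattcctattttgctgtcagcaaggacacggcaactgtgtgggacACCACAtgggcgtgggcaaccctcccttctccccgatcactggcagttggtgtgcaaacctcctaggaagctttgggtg
Motifs were searched on both strands. The Runx motif (TGTGGT, or its reverse complement) occurred in the windows of 7 of the 8 genes, Gzmk being the exception, and in 14% of all 32851 windows of this length. The windows of Gzmc, Gzmd, Gzme and Gzmf were 71.5% to 94.8% identical to each other, with Runx matches at similar positions. The 7 are therefore not independent occurrences to set against that share. The AP-1 motif (TGANTCA) occurred only in the Gzmb window among the 8, starting 58 bases before the transcript start, and in 6.7% of all windows. The cyclic AMP response element (TGACGTCA) occurred in the windows of Gzmc and Gzmf, which were 71.5% identical, and in 1.5% of all windows. The STAT motif (TTCNNNGAA) occurred in the Ctsg window and in 7% of all windows. The forkhead motif (TGTTTAC), the kind that Foxp3 can bind, had no match in these 8 windows and a match in 3.2% of all. A match is a description of the letters and no evidence of binding.

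Gzmb, Gzma, Gzmc and Gzmk had higher signal in transduced cells than in Tregs. In Tregs, the M176 allele went with the loss of Gzmb signal to background, while with M354 the Gzmb arrays overlapped those of WT Tregs. In transduced cells, Gzmb was high with every allele, Gzma and Gzmc were higher with M354, and Ctsg was higher with M176. Gzmd, Gzme and Gzmf stayed at or below background on all 12 arrays, with intensities of 11.1 to 17.5, 29.3 to 45.7 and 21.4 to 33.4. Background was taken per array as percentile 95 of 1040 olfactory, vomeronasal and trace amine receptor genes, which gave limits between 54.9 and 78.2. Values are the authors' intensities on a linear scale, and differences are of log2 means. Of the 8 genes, 5 passed the filter on dim genes and were tested with limma, among 8918 genes tested. Gzma and Gzmc passed only through the transduced arrays, and Ctsg only through both arrays of M176-transduced cells. In bulk samples, fewer cells of a type and less RNA per cell cannot be told apart.

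**Figure D1:**
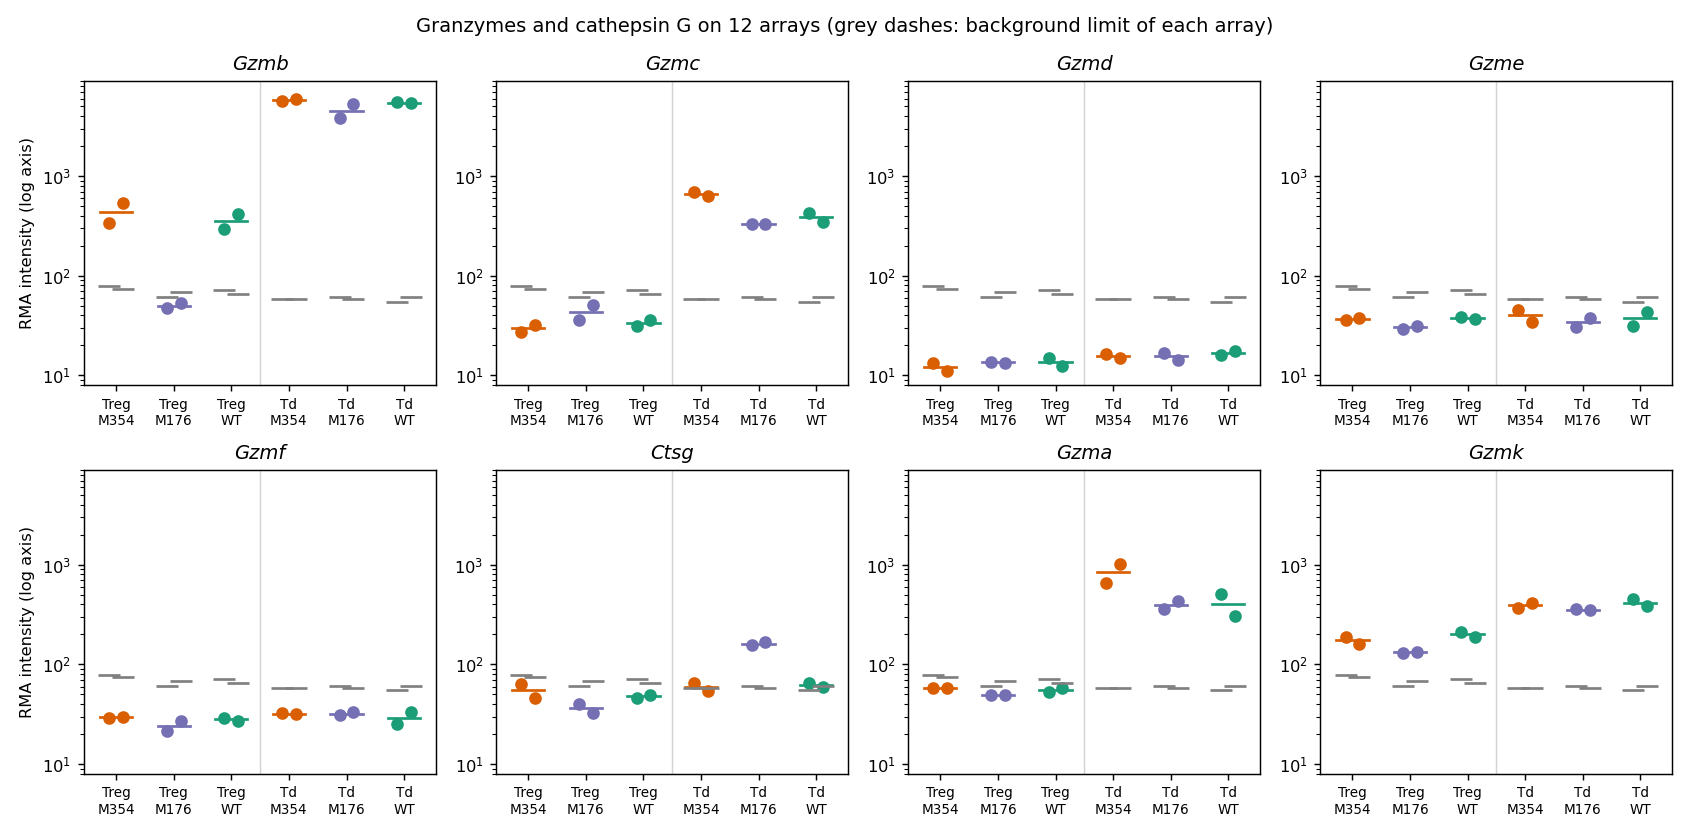
Intensity (log axis) of the 8 genes on each of the 12 arrays, with Tregs left, transduced cells (Td) right, coloured bars at group means and grey dashes at each array's background limit. Gzmb is at background in M176 Tregs and at 3791 or more on all transduced arrays, and Gzmd, Gzme and Gzmf lie at or below background throughout.

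Gzmb, the granzyme that triggers caspases, was among the brightest genes, its mean over all arrays standing at percentile 98.5 of the genes on the table. Its intensities were 338 and 541 in M354 Tregs, 47.6 and 52.8 in M176 Tregs, and 293 and 418 in WT Tregs. The M176 arrays lay below their background limits and far under every other Treg array, whereas the M354 and WT arrays overlapped. Gzmb averaged 50.2 ± 3.72 in M176 Tregs and 355 ± 88.4 in WT Tregs (SD, n = 2 each), so it fell at least 5.41-fold, taking the background limit for the dim group. The fitted log2 difference was -2.80 (SE 0.21, limma adjusted p = 3.63e-07). Against M176 Tregs, Gzmb was at least 6.62-fold higher in M354 Tregs (limma adjusted p = 3.11e-08). The comparison of M354 with WT Tregs gave a log2 difference of 0.29 (SE 0.21, limma adjusted p = 0.693), which did not pass.

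In transduced cells Gzmb had intensities of 5731 and 5915 with M354, 3791 and 5270 with M176, and 5549 and 5356 with WT Foxp3. All 6 arrays were far above the Treg arrays, and 1 of the M176 arrays was the lowest. The log2 differences from WT were 0.09 for M354 (limma adjusted p = 0.936) and -0.29 for M176 (limma adjusted p = 1). The effect of M176 on Gzmb differed between the systems by a log2 value of -2.52 (SE 0.29, limma adjusted p = 0.000123), being more negative in Tregs. The Gzmb calls for M176 against WT Tregs and for M354 against M176 Tregs held under all 19 alternatives tried, and the call for this difference between systems held under all 18 that applied.

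Gzmb was lower in Tregs than in transduced cells with each allele. The log2 difference was -3.77 with M354 (limma adjusted p = 5.54e-10) and -3.96 with WT (limma adjusted p = 3.27e-10). M176 Tregs were at least 69.2-fold below M176-transduced cells (limma adjusted p = 3.67e-13). In descending order of mean, the groups were M354-transduced, WT-transduced and M176-transduced cells at 5823, 5452 and 4530, then M354, WT and M176 Tregs. Neighbours within the transduced groups did not pass a test of difference, nor did M354 and WT Tregs.

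Gzmk, a tryptase, was the only member above background on all 12 arrays. It had intensities of 188 and 161 in M354 Tregs, 129 and 134 in M176 Tregs, and 214 and 187 in WT Tregs. Both M176 arrays lay below the other 4 Treg arrays, and those of M354 and WT overlapped. The log2 difference of M176 from WT Tregs was -0.60 (SE 0.14, limma adjusted p = 0.00447). That call was lost without replicate 1 of M176 Tregs (limma adjusted p = 0.0507) or replicate 1 of WT Tregs (limma adjusted p = 0.0546). M354 Tregs were above M176 Tregs by a log2 value of 0.40 (SE 0.14, limma adjusted p = 0.0359), and that call was lost without M354 replicate 1, M176 replicate 1 or M176 replicate 2, with limma adjusted p of 0.256, 0.176 and 0.0972. M354 and WT Tregs differed by -0.20 (limma adjusted p = 0.676).

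Gzmk in transduced cells had intensities of 365 and 418 with M354, 358 and 349 with M176, and 449 and 386 with WT Foxp3. The M354 and WT arrays overlapped, and the M176 arrays were the lowest of the 6. Log2 differences from WT were -0.09 for M354 (limma adjusted p = 0.908) and -0.24 for M176 (limma adjusted p = 0.956). Tregs were below transduced cells with each allele, by -1.17 with M354, -1.42 with M176 and -1.06 with WT on the log2 scale, with limma adjusted p of 5.13e-06, 4.56e-07 and 1.65e-05. The effects of the alleles did not differ detectably between systems, at -0.11 for M354 and -0.36 for M176 (limma adjusted p = 0.297 for M176).

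Gzma, the other tryptase, was at background on all 6 Treg arrays, with intensities between 49.6 and 58.4. In transduced cells it had 657 and 1018 with M354, 361 and 437 with M176, and 506 and 304 with WT Foxp3. Both M354 arrays were above the other 4, and those of M176 and WT overlapped. Gzma averaged 838 ± 256 with M354 and 405 ± 143 with WT Foxp3 (SD, n = 2 each), a log2 difference of 1.06 (SE 0.21, limma adjusted p = 0.0141). The call was lost without replicate 2 of M354-transduced cells (limma adjusted p = 0.153) or replicate 2 of WT-transduced cells (limma adjusted p = 0.2). Against M176-transduced cells, M354-transduced cells were higher by 1.04 on the log2 scale, which missed the threshold (limma adjusted p = 0.085) and passed without either WT-transduced array (limma adjusted p = 0.0097). M176 and WT-transduced cells differed by 0.02 (limma adjusted p = 1).

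Gzmc, which lies next to Gzmb on chromosome 14, was also at background on all 6 Treg arrays, at intensities of 27.4 to 50.3. In transduced cells Gzmc had 699 and 631 with M354, 333 and 334 with M176, and 430 and 343 with WT Foxp3. Both M354 arrays were highest, and the M176 arrays were just below those of WT. Gzmc averaged 665 ± 48.3 with M354 and 387 ± 61.8 with WT Foxp3 (SD, n = 2 each), a log2 difference of 0.79 (SE 0.16, limma adjusted p = 0.0191). That call was lost without M354 replicate 1, M354 replicate 2 or WT replicate 2, with limma adjusted p of 0.227, 0.0555 and 0.221. M354 was above M176 by 0.99 (limma adjusted p = 0.024), a call lost after quantile normalization (limma adjusted p = 0.102) and without any of the 4 arrays of both groups (limma adjusted p of 0.129 to 0.358). M176 and WT-transduced cells differed by -0.20 (limma adjusted p = 1).

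The fall of both genes in Tregs relative to transduced cells held with each allele. Gzma was at least 10.7-fold lower with M354, at least 6.15-fold lower with M176 and at least 5.73-fold lower with WT. Gzmc was at least 8.71-fold, 5.16-fold and 5.61-fold lower with M354, M176 and WT. The limma adjusted p of these differences lay between 3.16e-12 and 2.58e-08. Because both genes passed the filter only through transduced arrays, the fit with no filter bears on them. It gave limma adjusted p between 5.26e-13 and 9.95e-09. The effect of M354 did not pass the test of a difference between systems for Gzma (log2 -0.98, limma adjusted p = 0.195) or Gzmc (log2 -0.96, limma adjusted p = 0.0607). Gzmc passed with an offset of 16 (limma adjusted p = 0.0423), without either M176 Treg array (limma adjusted p = 0.0409) and without WT-transduced replicate 1 (limma adjusted p = 0.0314). Gzma passed without that last array (limma adjusted p = 0.0144).

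Ctsg, the neutrophil granule protease, had intensities of 63.1 and 46.5 in M354 Tregs, 40.2 and 32.7 in M176 Tregs, and 45.7 and 49.8 in WT Tregs, all below background. It had 64.7 and 53.8 in M354-transduced cells, 155 and 167 in M176-transduced cells, and 64.6 and 59.0 in WT-transduced cells. Only the M176-transduced arrays were both above background. Ctsg averaged 161 ± 8.92 with M176 and 61.8 ± 4.01 with WT Foxp3 in transduced cells (SD, n = 2 each), a log2 difference of 1.38 (SE 0.16, limma adjusted p = 0.000102). M354-transduced cells were below M176-transduced cells by -1.45 (limma adjusted p = 0.000588). Both calls held under all 19 alternatives. Because Ctsg passed the filter only through the group in which it was high, the fit with no filter on dim genes bears on it, and gave limma adjusted p of 6.73e-05 against WT and 0.00037 for M354 against M176.

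The fitted effect of M176 on Ctsg differed between the systems by a log2 value of -1.78 (SE 0.23, limma adjusted p = 0.000227, and 0.000165 with no filter). Its Treg term, -0.40, is between groups that were both at background, so the size of the difference rests on values with no measured level in Tregs. In M176, Tregs were at least 2.49-fold below transduced cells (limma adjusted p = 1.84e-08, and 7.52e-09 with no filter). With M354 and WT the comparison of the systems gave -0.12 (limma adjusted p = 0.539) and -0.37 (limma adjusted p = 0.0873), and the WT one passed after quantile normalization (limma adjusted p = 0.0157) and cyclic loess (limma adjusted p = 0.00897). In M354 against M176 Tregs, Ctsg and Gzmc passed with log2 differences of 0.58 and -0.52 (limma adjusted p = 0.0113 and 0.0236), but both groups were at background, so no fold is given. Those calls were lost for Ctsg under quantile normalization (limma adjusted p = 0.057) and cyclic loess (limma adjusted p = 0.0725), and for Gzmc with an offset of 16 (limma adjusted p = 0.0636).

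**Figure D2:**
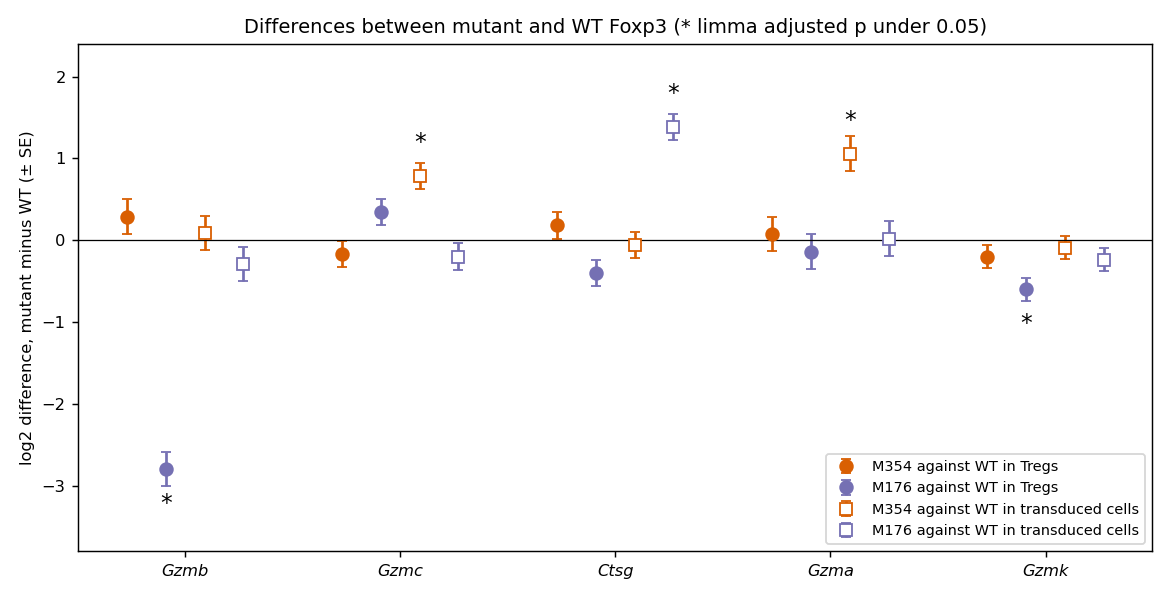
Log2 difference of each mutant from WT for the 5 tested genes, in Tregs (filled circles) and transduced cells (open squares), with bars of ± SE and asterisks at limma adjusted p under 0.05. Gzmb in M176 against WT Tregs (-2.80) and Ctsg in M176 against WT-transduced cells (1.38) stand farthest from 0.

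Counts over the 5 tested members are given beside the share of all 8918 tested genes that limma called. M354 against WT Tregs gave 0 calls and 0 members at an unadjusted p under 0.05, where 1.81% of genes were called (0.886% higher and 0.919% lower). M176 against WT Tregs gave 2 calls, both lower, where 24.7% were called (13.4% higher and 11.3% lower). M354 against M176 Tregs gave 3 higher and 1 lower, where 30.8% were called (12.7% higher and 18.1% lower). The count for M176 against WT Tregs is thus not far from what genes in general showed there.

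In transduced cells few genes were called. M354 against WT gave 2 members higher, where 1.33% of genes were called (0.359% higher and 0.976% lower). M176 against WT gave 1 higher, where 0.516% were called (0.0112% higher and 0.505% lower). Ctsg, the member called there, entered the test only through the M176 arrays, so this count supports nothing by itself. M354 against M176 gave 1 higher and 1 lower, where 0.0785% were called (0.0561% higher and 0.0224% lower). The member lower there is again Ctsg, so that part of the count supports nothing by itself either.

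Between systems, Tregs had 4 members lower with M354, where 47.5% of genes were called (15.2% higher and 32.3% lower). With M176 all 5 were lower, where 31.8% were called (11.8% higher and 20% lower), and with WT 4 were lower, where 30.2% were called (10.9% higher and 19.4% lower). Because Gzma, Gzmc and Ctsg entered the test through transduced arrays, these 3 counts support nothing by themselves. The M354 effect differed between systems for 0 members, with 2 at an unadjusted p under 0.05, where 1.08% of genes were called (0.83% higher and 0.247% lower). The M176 effect differed for 2, both lower, where 5.49% were called (4.03% higher and 1.47% lower). Ctsg is among the 2 and entered the test only through M176-transduced arrays, so this count supports nothing by itself either. The median log2 difference of the 5 was -0.40 in M176 against WT Tregs, beside -0.04 over all genes, and 0.09 in M354 against WT-transduced cells, beside 0.01.

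The gene cluster on chromosome 14 was not measured as one unit. RefSeq on GRCm38.p6 orders its 15 protein-coding genes as Cma1, Cma2, Mcpt1, Mcpt2, Mcpt9, Mcpt4, Mcpt8, Ctsg, Gzme, Gzmd, Gzmg, Gzmn, Gzmf, Gzmc and Gzmb, and 13 of them have a probe set of their own. Signal above background on any array was limited to Gzmb, Gzmc, Ctsg and Mcpt8, of which the first pair are neighbours at one end and the other pair are neighbours further in. Of the 7 family genes on the table outside the 8, 6 were at background on all arrays. The promoter windows of Gzmd and Gzme were 94.8% identical, those of Gzmc and Gzme 81.8%, and those of Gzmb and Gzmc 50.2%. Probes of related genes can share signal, but probes match transcripts, so the identity of promoters does not tell whether they do. Transcript and probe sequences were not compared.

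**Figure D3:**
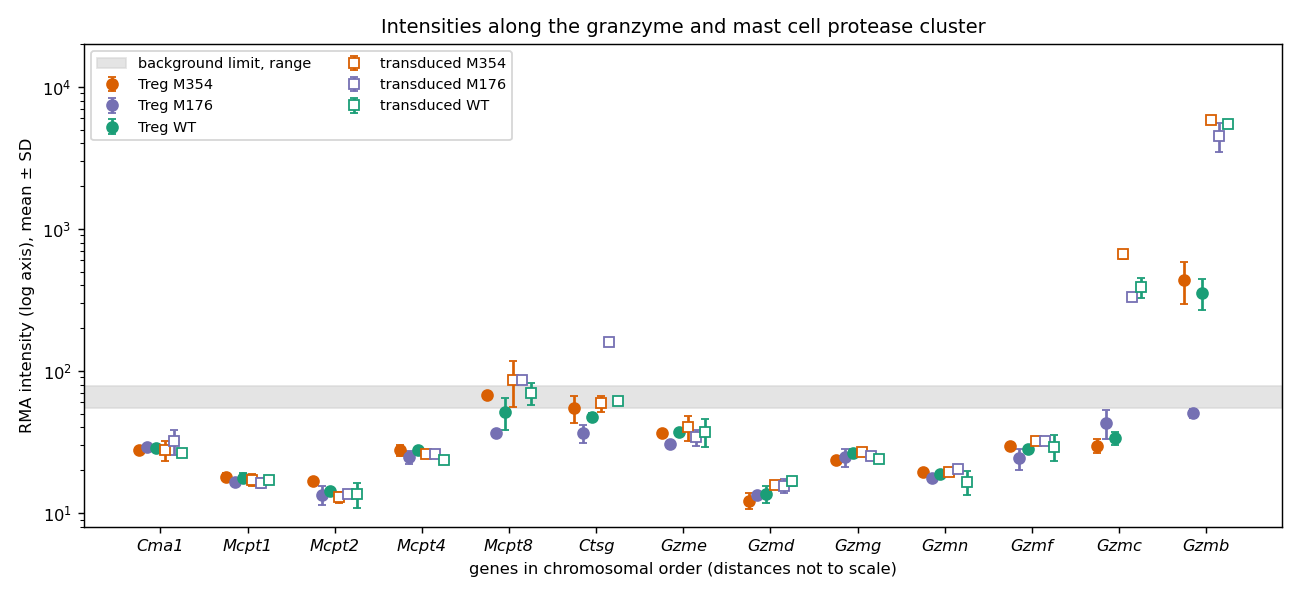
Intensity (log axis, mean ± SD, n = 2) of the 13 cluster genes with a probe set of their own, in chromosomal order with distances not to scale, for Tregs (filled circles) and transduced cells (open squares), with the range of background limits in grey. The highest means stand at Gzmc and Gzmb, and Ctsg is at 161 in M176-transduced cells.

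Genes that process, store or release granule proteases were called in both directions in M176 against WT Tregs, in a number not far from the share of all genes there. Of 15 tested, 1 rose in M354 against WT Tregs, where 1.81% of all genes were called, and 4 rose and 1 fell in M176 against WT Tregs, where 24.7% were called. Their median log2 differences were 0.02 and 0.15, beside -0.04 over all genes in each. In M354 against M176 Tregs, 3 of the 15 were higher and 7 lower, a larger share than that of all genes. There 30.8% of all genes were called (12.7% higher and 18.1% lower). Nkg7, a granule membrane protein, had 2466 and 2031 in M354 Tregs, against 1184 and 1039 in WT Tregs (log2 1.01, limma adjusted p = 0.00175). In M176 Tregs, Vamp7 and Vamp8, which fuse vesicles with membranes, were higher than in WT Tregs by 0.86 and 0.81 on the log2 scale, and the cathepsins Ctsl and Ctsw by 0.75 each. The limma adjusted p of these 4 lay between 0.000481 and 0.00461. None of the 15 was called in either mutant against WT-transduced cells, nor had any an unadjusted p under 0.05 with limma. Few genes of any kind were called there, 1.33% with M354 and 0.516% with M176. In WT Tregs against WT-transduced cells, where 30.2% of all genes were called, 7 were lower, among them Lyst, needed for lysosome-related organelles, by -2.27, and Nkg7 by -1.30. Ctsc, which trims granzyme precursors to their active form, differed from WT by -0.14 in M354 Tregs (limma adjusted p = 0.843) and 0.42 in M176 Tregs (limma adjusted p = 0.0727). Serpinb9, an inhibitor of granzyme B, differed from WT by -0.22 in M354 Tregs (limma adjusted p = 0.819) and -0.26 in M176 Tregs (limma adjusted p = 0.429). Of 3 tested inhibitors, limma called 0 in each mutant against WT comparison, beside the shares of all genes given above. In each Treg comparison with WT, 1 had an unadjusted p under 0.05. Perforin (Prf1) and serglycin (Srgn) are not analysed here.

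Transcription factors linked to granzyme expression had calls in each mutant against WT comparison. Of 13 tested, 2 rose in M354 against WT Tregs (1.81% of all genes called), Id2 by 1.34 and Bhlhe40 by 1.06 on the log2 scale (limma adjusted p = 7.23e-05 and 0.000401). In M176 against WT Tregs 2 rose and 6 fell (24.7% of all genes called), with a median log2 difference of -0.39, beside -0.04 over all genes. Id3, which restrains effector differentiation, rose by 1.44 (limma adjusted p = 1.24e-05), and Runx3, which activates cytotoxic genes in CD8+ T cells, fell to 412 and 466 in M176 Tregs, against 797 and 769 in WT Tregs (log2 -0.84, limma adjusted p = 0.000659). In transduced cells Bhlhe40 and Nfil3 were lower with M354, by -0.77 and -0.86 (1.33% of all genes called), and with M176, by -1.05 and -0.83 (0.516% called). Those comparisons share the WT-transduced arrays. WT Tregs had 1 gene higher and 6 lower than WT-transduced cells (30.2% of all genes called), including Id2 at -2.67 and Bhlhe40 at -2.17.

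Among 8 receptors upstream of granzyme expression, 4 fell in M176 against WT Tregs, where 24.7% of all genes were called and 11.3% were lower, with a median log2 difference of -0.33, beside -0.04 over all genes. In M354 against WT Tregs limma called 0, with 0 at an unadjusted p under 0.05, where 1.81% of all genes were called. Klrg1, a receptor of differentiated T cells, had 172 and 130 in M176 Tregs, against 640 and 801 in WT Tregs (log2 -2.26, limma adjusted p = 6.63e-07). The interleukin-2 receptor chains Il2ra and Il2rb were lower by -0.48 each (limma adjusted p = 0.00999 and 0.0102). In transduced cells limma called 0 of the 8 with either mutant, where 1.33% of all genes were called with M354 and 0.516% with M176. There 2 with M354 and 3 with M176 had an unadjusted p under 0.05. Il12rb2, the signalling chain of the interleukin-12 receptor, was at background in Tregs, with 45.6 and 49.2 in WT Tregs, against 1382 and 1146 in WT-transduced cells (limma adjusted p = 1.3e-13). Il12rb2 passed the filter on dim genes only through transduced arrays, so that p-value supports nothing by itself.

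Proliferation genes were called in most of the comparisons in which granzymes were, and also in M354 against WT Tregs, where no member was called. Of 21 tested, 13 fell in M176 against WT Tregs (24.7% of all genes called), where Gzmb fell, with a median log2 difference of -1.01, beside -0.04 over all genes. In M354 against WT-transduced cells (1.33% of all genes called), where Gzma and Gzmc rose, 4 rose, with a median of 0.51, beside 0.01. In M354 against WT Tregs (1.81% of all genes called) 3 rose and 15 had an unadjusted p under 0.05, with a median of 0.54, beside -0.04, while 0 of the 5 tested members had an unadjusted p under 0.05. Mki67, a marker of cycling cells, had 113 and 107 in M176 Tregs, against 370 and 637 in WT Tregs (log2 -2.15, limma adjusted p = 3.72e-06). Summed intensities of the 21 were 3822 and 3576 in M176 Tregs, against 5959 and 7479 in WT Tregs, and 23105 and 25289 in M354-transduced cells, against 18462 and 16042 in WT-transduced cells. In M176 against WT-transduced cells (0.516% of all genes called) 0 of the 21 were called, and 0 had an unadjusted p under 0.05 with limma. In M354 against M176 Tregs, 18 of the 21 were higher, as were 12.7% of all genes. In M354 against M176-transduced cells (0.0785% of all genes called) 0 were called and 21 had an unadjusted p under 0.05, with median 0.61. Between systems, 20, 21 and 20 were lower in WT, M354 and M176 Tregs, beside 19.4%, 32.3% and 20% of all genes. Some of the 21 needed transduced arrays to pass the filter on dim genes, so those last counts support nothing by themselves. The part of proliferation in the granzyme results was not tested.

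Markers of other cells that hold these proteases differed between the systems. The 13 markers of CD8+ T and NK cells summed to 1858 to 3498 in Tregs and to 4341 to 5361 in transduced cells. Nkg7 and Eomes of this list also stand in the lists above. Nkg7 made up much of these sums, at 3081 and 2432 in WT-transduced cells. Of 6 tested, limma called 1 higher and 4 lower in WT Tregs against WT-transduced cells. All genes gave 10.9% higher and 19.4% lower there. Some of the 6 needed transduced arrays to pass the filter on dim genes, so this count supports nothing by itself. Cd160 was higher in WT Tregs, at 122 and 146, against 82.8 and 93.9 in WT-transduced cells. Cd8a ranged from 70.0 to 111 in Tregs and from 344 to 449 in transduced cells (WT comparison log2 -2.13, limma adjusted p = 2.58e-07). Cd8a needed transduced arrays to pass the filter on dim genes, so that p-value supports nothing by itself. Klrd1, an NK receptor chain, was at background in Tregs and had 410 and 298 in M354-transduced cells, against 209 and 134 in WT-transduced cells (log2 1.06, limma adjusted p = 0.00737). Of the 13, Ncr1, Klrb1c, Klra8 and Klri2 were at background on all 12 arrays. The NK receptor genes Klrc2, Klrc1 and Klrk1 were at background in Tregs and above it on 6, 4 and 3 of the 6 transduced arrays, at 63.4 to 81.6, 48.9 to 89.9 and 47.9 to 69.9. The part of CD8+ T and NK transcripts in the Gzma, Gzmb and Gzmc results was not tested.

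The 12 neutrophil markers, which bear on Ctsg, summed to 632 to 748 in Tregs and to 1567 to 2394 in transduced cells. Within transduced cells the sums were 2394 and 1825 with M176, against 2125 and 2347 with WT Foxp3, and these overlapped. Mpo, Elane and Prtn3, further markers of neutrophils and granulocyte precursors, are not analysed here. Of the 4 tested (Ngp, Lcn2, Ly6g and Mmp9), limma called 0 in M176 against WT-transduced cells, where 0.516% of all genes were called. In that comparison 2 of the 4 had an unadjusted p under 0.05. Both arrays of Ly6g and Mmp9 were lower with M176 than with WT Foxp3. Ly6g had 185 and 212 with M176, against 309 and 249, and Mmp9 had 809 and 716, against 932 and 1008. The arrays of Ngp and Lcn2 overlapped. All 4 were lower in WT Tregs than in WT-transduced cells, where 30.2% of all genes were called and 19.4% were lower. All 4 needed transduced arrays to pass the filter on dim genes, so this count supports nothing by itself. Of the 12, S100a8, Ltf, Csf3r, Mmp8 and Retnlg, all high in mature neutrophils, were at background on all 12 arrays. Camp and Cebpe were above background on all 12, at 78.4 to 109 and 87.8 to 116 in Tregs and 83.4 to 108 and 75.7 to 105 in transduced cells. S100a9 was above it on 4 of the 6 Treg arrays and 5 of the 6 transduced arrays. The 10 mast cell and basophil markers summed to 784 and 612 with M176, against 602 and 569 with WT Foxp3, in transduced cells. In Tregs these 10 summed to 486 and 474 with M176, against 593 and 660 with WT, beside the fall of Gzmb. The mast cell protease Cpa3 had 26.1 and 29.9, at background, in M176 Tregs, against 42.7 and 85.6 in WT Tregs (limma adjusted p = 0.0433). The basophil marker Mcpt8 was above background on all 6 transduced arrays, at 61.4 to 109, and on no Treg array. Its Treg values, 35.6 to 69.8, overlapped those of transduced cells. Background limits were 61.4 to 78.2 on Treg arrays and 54.9 to 61.1 on transduced arrays. Beyond these levels, the part of such cells in the Ctsg and Gzmb results was not tested.

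**Figure D4:**
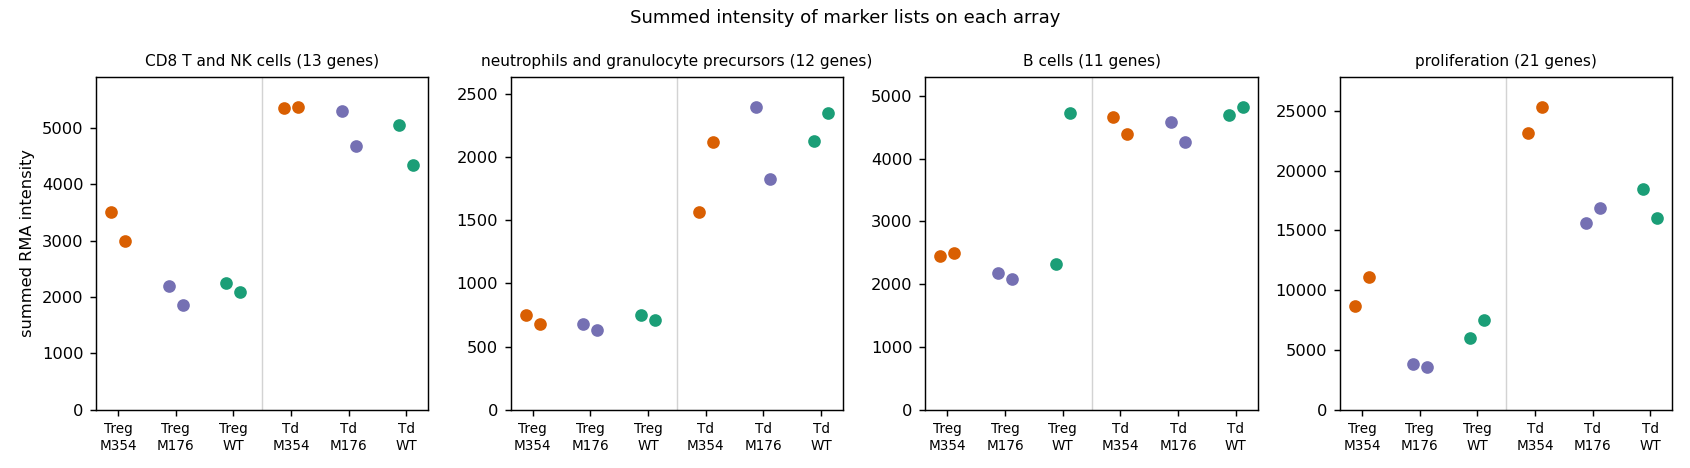
Summed intensity of markers of CD8+ T and NK cells, neutrophils, B cells and proliferation on each array (points), with Tregs left of transduced cells (Td) and mutants left of WT. Proliferation sums are lowest in M176 Tregs (3822 and 3576), and neutrophil sums are 1567 or more in all transduced arrays and 748 or less in all Tregs.

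Foxp3, the mutated gene, had intensities of 5991 and 5485 in M354 Tregs, 3442 and 3321 in M176 Tregs, and 5913 and 5327 in WT Tregs. On the transduced arrays Foxp3 lay between 5233 and 6163. The 8 markers of T cells and Tregs were above background on all 12 arrays. The array does not tell the alleles apart, so these levels do not check the labels. Both M176 Treg arrays had the highest mean log2 level of 36 small nucleolar RNAs, 9.98 and 10.04, against 8.74 and 8.87 in WT Tregs, and the part of that shift in the M176 Treg results was not tested. Replicate 2 of WT Tregs carried B cell transcripts, with 11 markers summing to 4723, against 2316 in replicate 1. Without that array, M176 against WT Tregs still gave the Gzmb call. All 6 transduced arrays had B cell sums as high as that array, at 4270 to 4817. The part of B cell transcripts in the comparisons of Tregs with transduced cells was not tested.

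Gzma, Gzmb, Gzmc and Gzmk followed the split between both systems. Over the 12 arrays, Pearson correlations of log2 intensity among Gzma, Gzmb, Gzmc and Gzmk lay between 0.88 and 0.98, and those of Ctsg with these 4 between 0.53 and 0.65. The arrays share that split, and these values are descriptions. Within the 6 transduced arrays, the correlations among these 4 lay between 0.3 and 0.87, and those of Ctsg with them between -0.71 and -0.45. Gzma, Gzmc and Ctsg were at background in Tregs, so correlations within Tregs are not given. The tested genes most like Gzmb were Myo1f (r = 0.991), Kif18b (0.988) and Arsb (0.987). Those most like Gzma were Cdc20 (0.994), Rnf32 (0.992) and Acpp (0.992), and those most like Gzmc were Gramd3 (0.989), AA467197 (0.987) and Acpp (0.986). Gzmk was most like Dock5 (0.987), Slco3a1 (0.985) and Slco4a1 (0.984). A correlation over 0.9 was common, with 469 to 553 genes for each of these 4. Ctsg had 0 such genes, its highest being Rbpms (0.84), Gsn (0.832) and Nlgn3 (0.823).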

How the data were processed

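Groups and replicate numbers came from the sample labels. The authors used RMA in Affymetrix Power Tools on the 12 arrays, per the submitters' processing notes. The deposited values are intensities on a linear scale, as the values show. The sources used here name no genome build for the probe set library. Arrays have no depth, and precision is limited by having 2 of them per group. Of 20716 probe sets, 17703 named 1 gene, 1246 several and 1767 none in the platform annotation. The Entrez numbers of 17635 matched RefSeq, and 0 symbols were updated. For each of 16426 genes the brightest probe set by mean was used.

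Testing was limited to the 8918 genes that exceeded their array's median (101.5 to 117.4) on 2 or more arrays. Using limma 3.58.1 under R 4.3.3, log2 intensities were modelled with 1 mean per group, no block, 6 residual degrees of freedom and a prior worth 10.9. Calls needed a p under 0.05 after Benjamini-Hochberg adjustment over all tested genes, separately in 11 comparisons, and the fit was tested on simulated data. "At least" folds set the bright group's mean against, per array, the higher of the gene's own value and the background limit in the dim group.

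The members and lists were chosen with earlier results of these data known. Named genes are the 8 members, up to 4 called genes of each list in a comparison, largest difference first, with Prf1, Ctsc, Srgn and Serpinb9, and the 3 genes most correlated with each tested member. Other marker genes were named outside that rule after their values were seen. They are Cd160 and genes that were not called, including those at background. Promoter windows and gene order came from RefSeq, and no protein sequences were used here. Alternatives were quantile and cyclic loess normalization, no filter, an offset of 16, the mean of all probe sets, each system fitted alone, a replicate block and leaving out each array.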

Additional observations from a re-analysis of the deposited data

Results flagged for a closer look

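The effect of the M176 allele differed between Tregs and transduced cells for 2 of the tested genes by an interaction test in limma. For Gzmb the difference in log2 effect, Tregs minus transduced cells, was -2.52 (limma adjusted p = 0.000123), with -2.80 in Tregs and -0.29 in transduced cells. M176 Tregs were at background, at least 5.41-fold below WT Tregs. For Ctsg the fitted difference was -1.78 (limma adjusted p = 0.000227), with 1.38 in transduced cells and -0.40 in Tregs. Both Treg groups were at background, so the size of that difference is uncertain, and Ctsg passed the filter on dim genes only through M176-transduced cells (limma adjusted p = 0.000165 with no filter). The cause of either difference was not tested.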

How the results depend on the processing

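Over the alternatives, 974 of 1020 recomputed member results kept their direction and side of the threshold, 22 lost a call, 10 gained one and 14 turned sign, none of the last being a called result. The number of members called changed by over 1.5 times in 5 comparisons. M354 against M176-transduced cells gave 1 call after quantile normalization, and the M354 effect between systems gave 1 with an offset of 16. Leaving out each array in turn gave 1 to 2 calls in M176 against WT Tregs, 1 to 4 in M354 against M176 Tregs, 0 to 2 in M354 against WT-transduced cells, 1 to 3 in M354 against M176-transduced cells and 0 to 2 for the M354 effect between systems. The arrays concerned are named beside each gene in the results above, and for the calls of Ctsg and Gzmc in M354 against M176 Tregs they were M354 replicate 1 (limma adjusted p = 0.186 and 0.196) and M176 replicate 2 (limma adjusted p = 0.126 and 0.288). Where a lone array was left, it was assumed to vary like the other groups. Ctsg in M354 Tregs against M354-transduced cells was called after cyclic loess (limma adjusted p = 0.0326).

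Sign changes came from leaving out an array. The log2 difference then ranged from -0.05 to 0.63 for Gzmb and from -0.04 to 0.40 for Ctsg in M354 against WT Tregs. It ranged from -0.20 to 0.02 for Gzmk and from -0.20 to 0.07 for Ctsg in M354 against WT-transduced cells, and from -0.35 to 0.39 for Gzma in M176 against WT-transduced cells. For Ctsg in M354 Tregs against M354-transduced cells it ranged from -0.34 to 0.10. For the M354 effect between systems it ranged from -0.14 to 0.53 for Gzmb and from -0.22 to 0.00 for Gzmk, and for the M176 effect from -0.53 to 0.21 for Gzma. The cause was not tested.

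With the replicate number as a block, all 55 member results stayed on their side of the threshold, for example Gzma in M354 against WT-transduced cells (limma adjusted p = 0.0227). Deviations of arrays with the same number correlated between -0.55 and 0.25 over 15 pairs of groups, so the numbers were not shown to pair the samples. Signal near background limits Gzma, Gzmc and Ctsg in Tregs, and Gzmd, Gzme and Gzmf in all groups.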
